A study of Mus musculus with 9 samples.

Results

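The genes described here are 8 mouse genes for basic helix-loop-helix (bHLH) transcription factors of the neuronal lineage: Neurog1, Neurog2, Neurod1, Neurod2, Neurod4, Neurod6, Nhlh1 and Nhlh2. They were chosen by name, with earlier results of these data known, 8 of the 35498 genes counted, and all 8 passed the filter on low counts. RNA was sequenced from the whole cortical tissue of C57Bl/6 embryos at E13.5, in 9 stranded mRNA libraries. The double knockout (DKO, 3 libraries) is labelled Smarca1 -/- with Cre +/-, and the series names it as lacking Smarca5 and Smarca1. The Smarca1 knockout (Smarca1 KO, 3 libraries) is Smarca1 -/- with Cre -/-, so it shares the Smarca1 genotype of the DKO. The wild type (WT, 3 libraries) is Smarca1 +/+ with Cre -/-. Smarca1 and Smarca5 are the ATPases of ISWI complexes, which space nucleosomes. Which driver the Cre has, which cells it acts in, which exons are lost and which Smarca5 alleles the groups without Cre carry is not stated in the labels. Nor do the labels say that each replicate is its own embryo. The p-values therefore set group differences against the spread of these samples only, which may be a technical spread.

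Proneural bHLH factors bind DNA at the E-box, written CANNTG, mostly as partners of the E proteins Tcf3, Tcf4 and Tcf12. In the dorsal telencephalon Neurog1 and Neurog2 act in dividing progenitors, where they turn on Notch ligands and commit cells to a glutamatergic neuronal fate. Neurod1, Neurod4, Nhlh1 and Nhlh2 are expressed in cells leaving the cycle, downstream of the neurogenins, and Neurod2 and Neurod6 mark cortical projection neurons after the last division. Id proteins bind E proteins and keep them from DNA, and Hes and Hey proteins repress proneural genes, many of them as effectors of Notch.

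Gene counts summed to between 27466046 and 46007527 per library. The check of the genotype labels was Smarca5, which lay between 77.2 and 84.4 CPM (read counts relative to library size, with TMM factors) in DKO, between 212.2 and 245.8 CPM in the Smarca1 KO libraries and between 262.0 and 270.7 CPM in WT. Smarca1 RNA was called in no comparison and checks nothing, since RNA outside removed exons can persist. Markers of cortex were present: Lhx2 averaged 278.0 ± 18.2 CPM in DKO, 313.0 ± 39.9 CPM in Smarca1 KO and 414.3 ± 14.9 CPM in WT (SD, n = 3 each). Meninges and mesenchyme markers (8 genes, among them Col1a1 and Col3a1) summed to 636.4 CPM in DKO replicate 1 and 582.4 CPM in Smarca1 KO replicate 1, against 234.1 to 264.5 CPM in the other DKO and Smarca1 KO libraries and 415.0 to 502.1 CPM in WT. Both of these libraries stand apart in this respect from the others of their group.

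Promoter sequences are shown for the 3 genes that fell in DKO against both other groups, Neurod4, Neurog1 and Nhlh1, and for Neurod6, which passed the test in none of the 3 comparisons. Each runs 5′ to 3′ from 250 bases before to 50 bases after the RefSeq start (GRCm38.p6), and capitals mark the E-box letters CANNTG. The windows are chr10:130280205-130280504 for Neurod4, chr13:56252131-56252430 for Neurog1, chr1:172057547-172057846 for Nhlh1 and chr6:55681214-55681513 for Neurod6, all on the minus strand.
Neurod4: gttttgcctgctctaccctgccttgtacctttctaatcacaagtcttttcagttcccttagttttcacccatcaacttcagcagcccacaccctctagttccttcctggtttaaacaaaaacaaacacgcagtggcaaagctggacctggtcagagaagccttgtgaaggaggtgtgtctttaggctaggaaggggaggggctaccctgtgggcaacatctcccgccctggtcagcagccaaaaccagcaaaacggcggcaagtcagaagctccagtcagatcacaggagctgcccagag
Neurog1: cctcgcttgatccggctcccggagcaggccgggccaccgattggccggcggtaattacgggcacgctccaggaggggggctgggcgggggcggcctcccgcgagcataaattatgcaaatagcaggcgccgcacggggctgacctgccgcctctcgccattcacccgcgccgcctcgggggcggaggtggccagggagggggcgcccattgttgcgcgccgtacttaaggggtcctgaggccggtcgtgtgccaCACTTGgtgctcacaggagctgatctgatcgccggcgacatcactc
Nhlh1: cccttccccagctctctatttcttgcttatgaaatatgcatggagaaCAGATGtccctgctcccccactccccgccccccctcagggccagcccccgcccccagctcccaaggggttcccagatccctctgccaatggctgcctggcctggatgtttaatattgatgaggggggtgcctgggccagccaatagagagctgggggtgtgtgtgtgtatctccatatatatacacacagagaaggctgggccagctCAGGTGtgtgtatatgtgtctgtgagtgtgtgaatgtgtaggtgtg
Neurod6: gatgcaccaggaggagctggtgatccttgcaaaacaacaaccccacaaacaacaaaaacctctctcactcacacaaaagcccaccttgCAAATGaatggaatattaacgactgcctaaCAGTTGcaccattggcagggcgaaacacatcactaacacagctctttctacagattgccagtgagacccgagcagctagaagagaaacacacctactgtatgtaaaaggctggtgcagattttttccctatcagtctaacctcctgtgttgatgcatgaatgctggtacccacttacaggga

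The number of E-boxes in these windows did not separate the genes that fell from those that were not called. Promoters of all 8 genes were found in RefSeq, and both strands were searched, although CANNTG reads the same class on either strand. Neurod4 and Neurog2 had no CANNTG, Neurog1 and Neurod1 had 1, Nhlh1 and Neurod6 had 2, Neurod2 had 3 and Nhlh2 had 4. Of 32851 RefSeq promoters of the same length, 72.3% held at least 1, with a median of 1. The forms of the E-box, which are subsets of CANNTG, were CACTTG in Neurog1, CAGATG and CAGGTG in Nhlh1, and CAAATG and CAGTTG in Neurod6. CAGATG or its reverse complement, held by 17.2% of all promoters, was also found in Neurod2 and Nhlh2, while CAGCTG, held by 16.3%, was found in Nhlh2. The letters TGGGAA, a core of sites for the Notch effector RBPJ, occurred in Nhlh1 and Nhlh2, against 25.6% of all promoters, and TATAAA, held by 13.6%, occurred in none of the 8. A match is a description of the letters and says nothing of binding.

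Per transcript length, in TPM (the deposited abundances, which sum to the same total in each library), the 8 genes spanned a wide range in WT cortex. Neurod6 was highest at 336.6 ± 22.2 TPM (SD, n = 3, as for all means here), rank 406 of the 15773 genes tested. Neurog2 at 221.6 ± 5.28 TPM and Neurod2 at 213.6 ± 13.6 TPM followed, and their WT libraries overlapped. Nhlh1 was next at 57.0 ± 2.46 TPM, then Neurod1 at 48.2 ± 4.46 TPM, Nhlh2 at 28.5 ± 0.501 TPM and Neurog1 at 19.9 ± 0.343 TPM. Neurod4 was lowest at 4.55 ± 0.792 TPM, rank 11500. Apart from Neurog2 and Neurod2, neighbours in this order did not overlap across the WT libraries.

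The order of the means in DKO and in Smarca1 KO differed from that in WT. Neurod2 (200.4 ± 30.2 TPM in DKO) stood above Neurog2 (151.7 ± 7.78 TPM in DKO) with no overlap between libraries, and Neurod1 (41.5 ± 4.57 TPM in DKO) stood above Nhlh1 (26.8 ± 1.45 TPM in DKO). Nhlh1 overlapped in DKO with Nhlh2, which was at 24.0 ± 1.32 TPM. Neurog1 at 9.23 ± 0.192 TPM and Neurod4 at 1.58 ± 0.102 TPM kept the lowest places in DKO, as they did in Smarca1 KO with 15.5 ± 3.18 TPM and 4.59 ± 0.656 TPM. In Smarca1 KO, Neurod2 overlapped Neurog2 and Neurod1 overlapped Nhlh1.

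**Figure D1:**
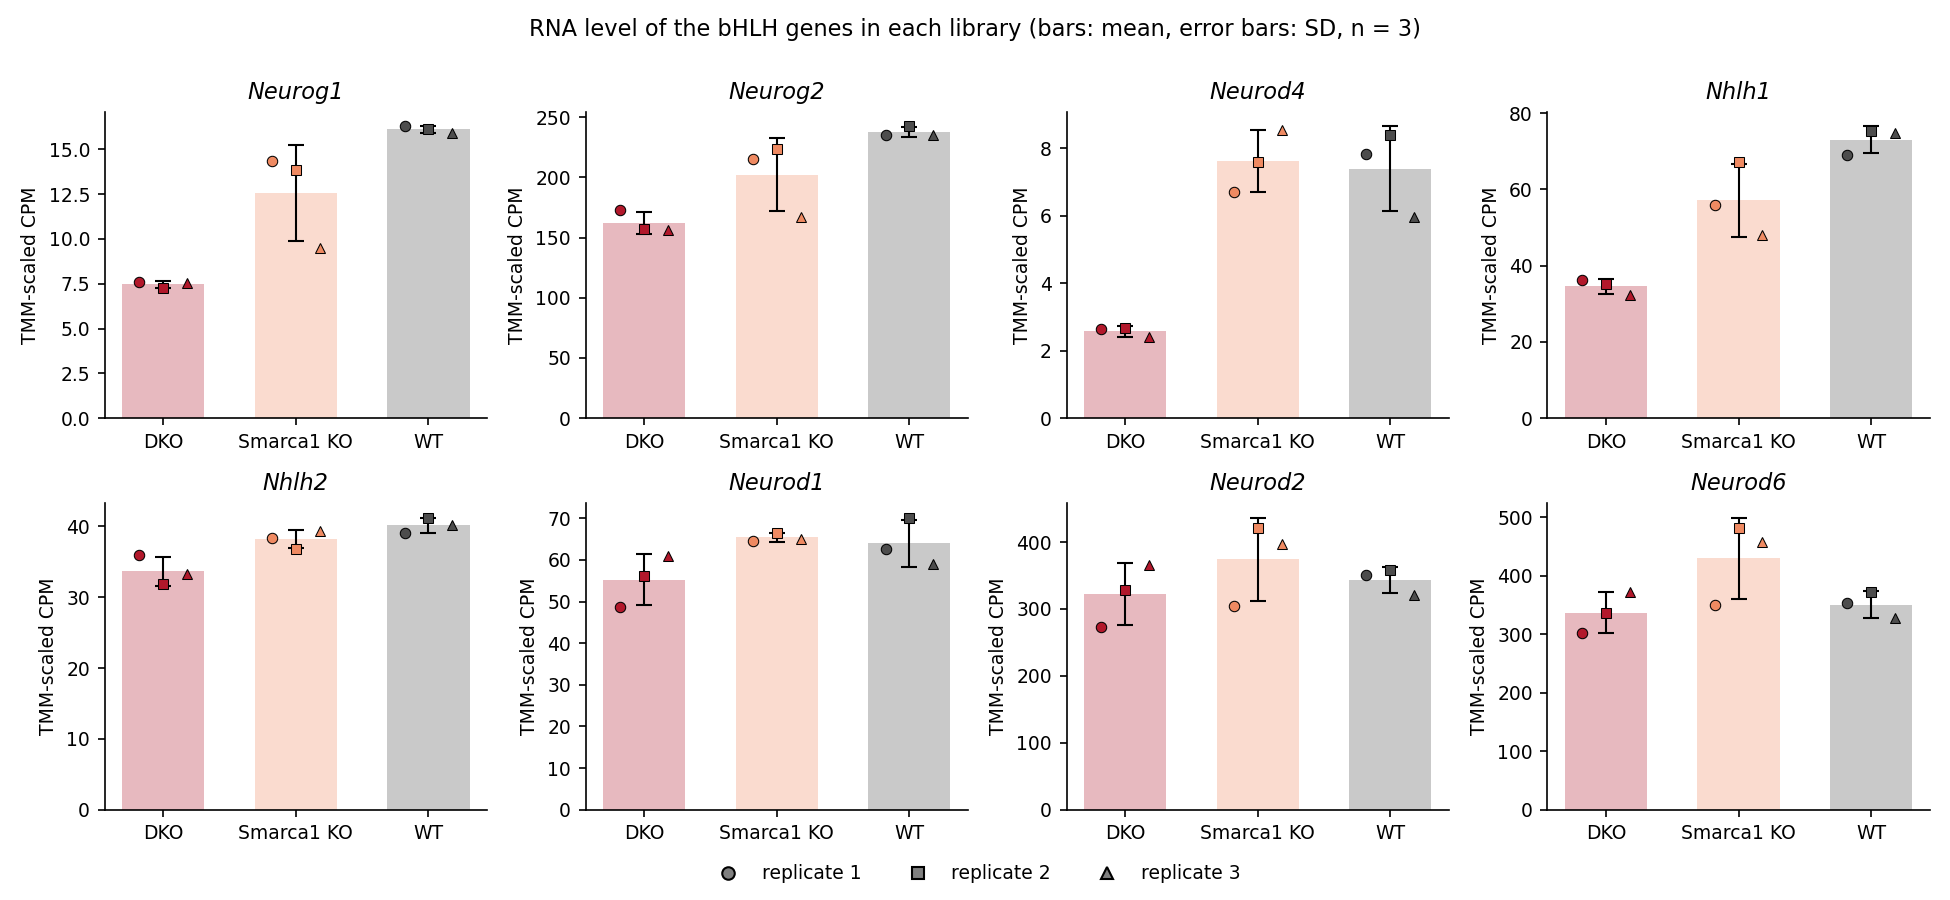
TMM-scaled CPM of the 8 genes in each library of DKO, Smarca1 KO and WT (points, marker shape by replicate), with the group mean as a bar and the SD as an error bar (n = 3 each); every axis starts at 0. Neurod4 lies between 2.40 and 2.69 CPM in DKO and at 5.98 CPM or more in the other libraries, while the groups overlap for Neurod2 and Neurod6.

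DKO was compared with Smarca1 KO to ask what changes with the Cre allele and the loss of Smarca5 where both groups lack Smarca1. Of the 8 genes 3 fell (Neurod4, Nhlh1 and Neurog1), none rose and 5 did not pass the test; across all 15773 genes 4.39% were called and 2.66% fell. All 8 log2 fold changes were negative, with a median of -0.33 against 0.004 over all genes, and 7 had an unadjusted p under 0.05, as did 2905 of all genes. For 5 of the 8 every DKO library was below every Smarca1 KO library, which held for 10.7% of all genes. DESeq2, which called 1135 genes here where edgeR called 692, called 5 of the 8, adding Neurog2 (adjusted p = 0.0255) and Neurod6 (adjusted p = 0.0420). Throughout, calls are by edgeR's quasi-likelihood F test with Benjamini-Hochberg adjustment over all genes, at an adjusted p under 0.05.

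The comparison of DKO with WT contrasts both genotype changes at once. Here 5 of the 8 genes fell (Neurod4, Neurog1, Nhlh1, Neurog2 and Nhlh2), none rose and 3 did not pass; 12% of all genes were called and 6.35% fell. The median log2 fold change of the 8 was -0.40, against 0.008 over all genes, and all 8 were again negative. The same 5 genes had every DKO library below every WT library, against 20.4% of all genes. Both comparisons use the same DKO libraries, so their values are not independent. Mean log2 CPM of 4 Y-linked genes was 5.80 to 5.86 in DKO, 5.89 to 6.00 in Smarca1 KO and 5.94 to 6.00 in WT. Their RNA was thus present at a similar level in all 9 libraries. The groups account for 0.771 of the variance of this level, so a covariate of these genes and the groups cannot be told apart. With it 0 of the 8 genes were called in either comparison, and over all genes 11 were called against Smarca1 KO and 6 against WT. The log2 fold changes with that covariate were -1.59 against Smarca1 KO and -1.55 against WT for Neurod4, -0.33 and -0.67 for Neurog1, and -0.45 and -0.79 for Nhlh1, each against Smarca1 KO and then WT.

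Neurog1, which acts with Neurog2 at the start of cortical neurogenesis, fell in DKO. Neurog1 was 7.60, 7.25 and 7.56 CPM in DKO replicates 1 to 3, 14.4, 13.8 and 9.51 CPM in the Smarca1 KO libraries and 16.3, 16.1 and 15.9 CPM in WT, on 224 to 636 reads per library. The DKO libraries were the 3 lowest of the 9, the WT libraries the 3 highest, and Smarca1 KO replicate 3 lay nearest to DKO. The log2 fold change was -0.75 against Smarca1 KO (SE 0.14, adjusted p = 0.0174) and -1.11 against WT (SE 0.14, adjusted p = 0.00264). The call against Smarca1 KO was lost when DKO replicate 2 (adjusted p = 0.0665), DKO replicate 3 (adjusted p = 0.0630) or Smarca1 KO replicate 2 (adjusted p = 0.0624) was left out, and with those 2 groups alone in the fit (adjusted p = 0.0909), by the same edgeR test. The gene is a single exon on GRCm38 at chr13:56250478-56252163, minus strand, and none of the 31-base words of its transcript occurs in another gene.

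Neurog2, the main proneural factor of cortical progenitors, was 173.0, 157.3 and 156.2 CPM in DKO, 215.6, 223.4 and 167.5 CPM in the Smarca1 KO libraries and 234.9, 242.7 and 235.3 CPM in WT. DKO lay below WT in all libraries, whereas Smarca1 KO replicate 3 lay within the DKO range. Neurog2 fell in DKO against WT (adjusted p = 0.00926), where its log2 fold change was -0.55 (SE 0.094). Against Smarca1 KO its log2 fold change was -0.32 (95% interval -0.53 to -0.11, adjusted p = 0.0983), and without Smarca1 KO replicate 3 it was -0.44 (adjusted p = 0.00317). Smarca1 KO replicate 3 also had the lowest level of Neurog1 and Nhlh1 in its group and the lowest summed level of 8 radial glia markers of all 9 libraries, 2029 CPM. Whether that has a part in these values was not tested. Neurog2 has 2 exons at chr3:127633135-127635631, plus strand.

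Neurod4, a factor expressed in committed progenitors and early neurons, had the largest fold change of the 8 genes in both DKO comparisons. It was 2.64, 2.69 and 2.40 CPM in DKO, 6.71, 7.61 and 8.56 CPM in the Smarca1 KO libraries and 7.84, 8.39 and 5.98 CPM in WT. Every DKO library was below every other library, and the Smarca1 KO and WT ranges overlapped. The log2 fold change in DKO was -1.56 against Smarca1 KO (95% interval -1.92 to -1.21, adjusted p = 0.00113) and -1.52 against WT (95% interval -1.88 to -1.17, adjusted p = 0.00124). The depth is low, at 83 to 110 reads in DKO libraries, 223 to 258 in Smarca1 KO and 183 to 306 in WT, so counting alone gives an error of 11% at the fewest reads and 5.72% at the most. Neurod4 lies at chr10:130268152-130280240, minus strand, and shares no 31-base word with another gene.

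Nhlh1, a factor of newly formed neurons, fell in DKO against both groups. Its level was 36.1, 35.2 and 32.3 CPM in DKO, 55.9, 67.2 and 48.1 CPM in the Smarca1 KO libraries and 69.0, 75.4 and 74.8 CPM in WT. The groups formed 3 ranges with no overlap, DKO lowest and WT highest. The log2 fold change in DKO was -0.73 against Smarca1 KO (SE 0.11, adjusted p = 0.00634) and -1.08 against WT (SE 0.11, adjusted p = 0.00086). Nhlh1 lies at chr1:172052292-172057573, minus strand.

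Its paralogue Nhlh2 was 35.9, 31.9 and 33.2 CPM in DKO, 38.4, 36.9 and 39.4 CPM in the Smarca1 KO libraries and 39.1, 41.3 and 40.2 CPM in WT. The DKO libraries were the lowest 3 of the 9, by a small margin. Nhlh2 fell against WT (adjusted p = 0.0217), where its log2 fold change was -0.25 (SE 0.056), and had a log2 fold change of -0.18 against Smarca1 KO (95% interval -0.31 to -0.06, adjusted p = 0.113). The call against WT was lost when DKO replicate 2 or 3 or any of the 3 WT libraries was left out (adjusted p between 0.0620 and 0.0839 in those edgeR fits). Nhlh2 (chr3:102010076-102015492, plus strand) was the only one of the 8 with more than 1 transcript in the tables, and the transcript Nhlh2-202 held 76.4% to 81.1% of its reads in DKO, 74.5% to 77.6% in Smarca1 KO and 74.7% to 78.9% in WT.

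Neurod1, which follows Eomes in intermediate progenitors and young neurons, was 48.7, 56.2 and 60.9 CPM in DKO, 64.6, 66.6 and 65.0 CPM in the Smarca1 KO libraries and 62.7, 70.2 and 59.0 CPM in WT. The DKO libraries lay below the Smarca1 KO libraries but overlapped WT. Its log2 fold change did not pass the test, at -0.24 against Smarca1 KO (95% interval -0.43 to -0.05, adjusted p = 0.161) and -0.21 against WT (95% interval -0.40 to -0.02, adjusted p = 0.128). Neurod1 (chr2:79452521-79456751, minus strand) lies within the bounds of Cerkl, annotated on the same strand at chr2:79330543-79456785. Of its 31-base words 11.2% also occur in other genes, Cerkl among them, so its counts are less certain than those of the other 7, whose share was at most 0.515%.

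Neurod2 and Neurod6, the factors of postmitotic projection neurons, passed the test in neither DKO comparison. Neurod2 was 272.6, 328.0 and 365.4 CPM in DKO, 303.7, 421.7 and 397.3 CPM in the Smarca1 KO libraries and 350.5, 358.9 and 321.1 CPM in WT. Neurod6 was 302.1, 336.8 and 372.8 CPM in DKO, 350.6, 481.1 and 458.2 CPM in the Smarca1 KO libraries and 353.6, 371.8 and 327.3 CPM in WT. The groups overlapped for both genes, and DKO replicate 1 and Smarca1 KO replicate 1, the libraries with the most meninges marker RNA, were the lowest of their groups for both. The log2 fold change of Neurod2 was -0.22 against Smarca1 KO (95% interval -0.51 to 0.07) and -0.09 against WT (95% interval -0.38 to 0.20). For Neurod6 it was -0.35 against Smarca1 KO (95% interval -0.61 to -0.09, adjusted p = 0.138) and -0.06 against WT (95% interval -0.32 to 0.20, adjusted p = 0.775). With DKO replicate 1 and Smarca1 KO replicate 1 left out, a choice made after seeing the data, Neurod6 was called in DKO against Smarca1 KO (change on the log2 scale -0.40, adjusted p = 0.0329) and Neurog1 was not (log2 fold change -0.65, adjusted p = 0.0818); leaving out Smarca1 KO replicate 1 alone also called Neurod6 (log2 fold change -0.48, adjusted p = 0.0247). The part of meninges RNA in these values was not tested. Neurod2 lies at chr11:98325415-98329648 and Neurod6 at chr6:55677822-55681263, both on the minus strand.

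**Figure D2:**
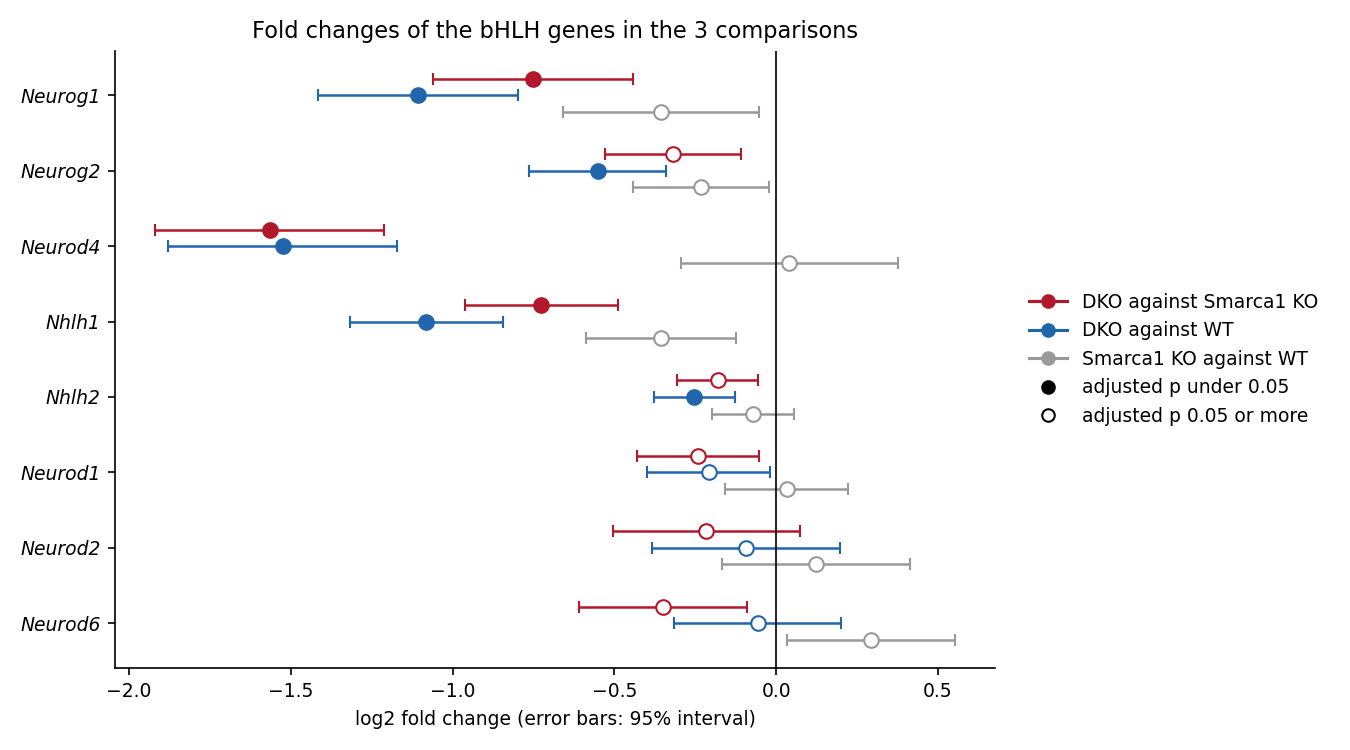
Log2 fold changes (x axis) of the 8 genes for DKO set against each of the other groups and for Smarca1 KO set against WT, with 95% intervals as bars and filled points where the adjusted p is under 0.05. The filled points are 3 genes in DKO against Smarca1 KO and 5 genes in DKO against WT, with Neurod4 farthest to the left at -1.56 and -1.52.

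The comparison of Smarca1 KO with WT addresses the Smarca1 genotype without Cre. None of the 8 genes was called by edgeR, where 0.336% of all genes were called; 4 of the 8 were under 0.05 in unadjusted p, as were 2978 of all 15773 genes. With DESeq2, which called 709 genes here where edgeR called 53, there was 1 call among the 8, Nhlh1 (adjusted p = 0.0352). Neurog1, Neurog2 and Nhlh1 were lower in every Smarca1 KO library than in every WT library, against 13.6% of all genes. Their log2 fold changes were -0.36 for Neurog1 (95% interval -0.66 to -0.05, adjusted p = 0.217), -0.23 for Neurog2 (95% interval -0.44 to -0.02, adjusted p = 0.232) and -0.36 for Nhlh1 (95% interval -0.59 to -0.12, adjusted p = 0.147). Nhlh1 was called without Smarca1 KO replicate 2 (log2 fold change -0.49, adjusted p = 0.0460).

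The other 5 genes overlapped between Smarca1 KO and WT. Neurod4 had a log2 fold change of 0.04 (95% interval -0.29 to 0.38), Neurod1 of 0.03 (95% interval -0.16 to 0.22) and Nhlh2 of -0.07 (95% interval -0.20 to 0.05). Neurod2 was at 0.12 (95% interval -0.17 to 0.41) and Neurod6 at 0.29 (95% interval 0.03 to 0.55, adjusted p = 0.227), whose mean was highest in Smarca1 KO of the 3 groups, at 430.0 ± 69.7 CPM. Neurod6 was called when both libraries rich in meninges markers were left out (log2 fold change 0.42, adjusted p = 0.0238). That fit called 607 of all genes in this comparison, against 53 in the main fit. The Smarca1 KO libraries kept in it held 241.1 and 244.2 CPM of meninges markers, below the 415.0 to 502.1 CPM in WT. It is thus less balanced in these markers than the main fit.

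Ratios of TPM between related genes within a library describe their unequal change and were given no test. The ratio of Neurog1 to Neurog2 was 0.0609 ± 0.00299 in DKO, 0.0819 ± 0.00654 in Smarca1 KO and 0.0898 ± 0.00203 in WT, with the DKO libraries below all others. The ratio of Nhlh1 to Nhlh2 was 1.12 ± 0.0804 in DKO, 1.67 ± 0.362 in Smarca1 KO and 2.0 ± 0.0706 in WT. It spread widely in Smarca1 KO, where replicate 2 was at 2.06 and replicate 3 at 1.34. The ratio of Neurod4 to Neurod1 was 0.0384 ± 0.00618 in DKO, 0.0948 ± 0.0115 in Smarca1 KO and 0.0941 ± 0.0100 in WT. For the pair expressed in projection neurons, the ratio of Neurod2 to Neurod6 was 0.621 ± 0.0320 in DKO, 0.572 ± 0.00900 in Smarca1 KO and 0.635 ± 0.00525 in WT, and the DKO libraries overlapped WT and lay above Smarca1 KO.

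**Figure D3:**
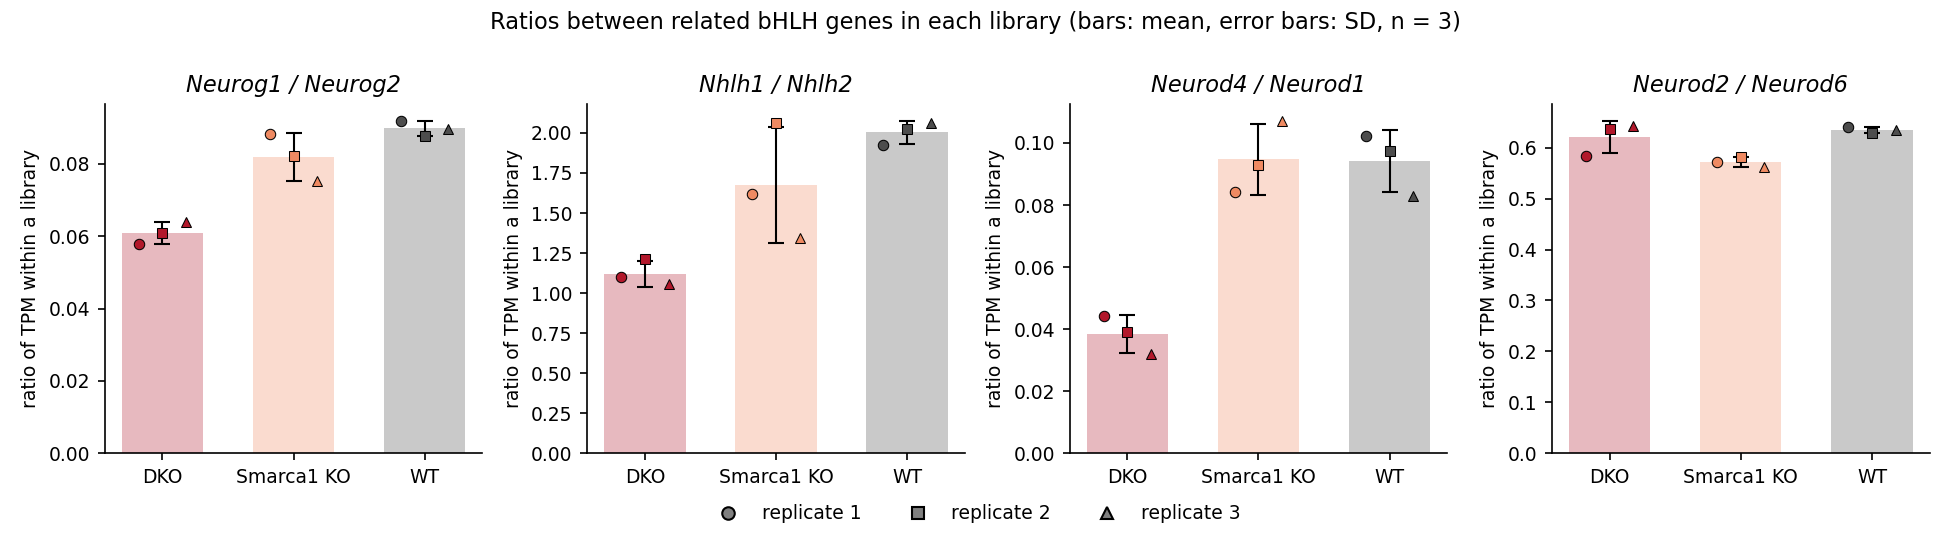
Ratios of TPM between pairs of related genes within each library (points) of DKO, Smarca1 KO and WT, with group means as bars and SD as error bars (n = 3 each); axes start at 0. The DKO libraries lie below all others for Neurog1 to Neurog2, Nhlh1 to Nhlh2 and Neurod4 to Neurod1; for Neurod2 to Neurod6 they overlap WT and lie above Smarca1 KO.

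Of 7 genes for the E proteins that pair with these factors and for the Id inhibitors, 0 were called in DKO against Smarca1 KO (2 with an unadjusted p under 0.05, 0 by DESeq2), with a median log2 fold change of -0.03; the smallest p belonged to Id3 (log2 fold change 0.46, adjusted p = 0.227). In DKO against WT 2 fell and none rose, with a median of -0.17; 6 were under 0.05 in unadjusted p, 4 fell and 1 rose with DESeq2, and 4 fell and 2 rose with only those groups in the fit. The edgeR calls were Id4, which averaged 252.8 ± 30.0 CPM in DKO and 425.2 ± 39.2 CPM in WT (log2 fold change -0.75, adjusted p = 0.0169), and the E protein gene Tcf3 (log2 fold change -0.26, adjusted p = 0.0397). In Smarca1 KO against WT 0 were called by edgeR, 4 were under 0.05 in unadjusted p, and with DESeq2 there were 3 calls; Id4 had the smallest p (log2 fold change -0.57, adjusted p = 0.140). In DKO against WT 0 fell without DKO replicate 2 or 3 or WT replicate 1 or 3, 1 fell without WT replicate 2, and 4 fell without Smarca1 KO replicate 1.

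Among 8 genes for bHLH repressors, 1 fell in DKO against Smarca1 KO and 4 fell in DKO against WT, with medians of -0.12 and -0.46. Bhlhe40, a repressor that responds to the clock and to stress, fell in both (log2 fold change -0.52 against Smarca1 KO, adjusted p = 0.0175, and -0.73 against WT, adjusted p = 0.00324). Its mean was 8.60 ± 0.636 CPM in DKO, 12.3 ± 0.972 CPM in Smarca1 KO and 14.3 ± 0.871 CPM in WT. The Notch effectors Hes1 (log2 fold change -0.53, adjusted p = 0.0150), Hey1 (-0.53, adjusted p = 0.0296) and Hes5 (-0.49, adjusted p = 0.0435) fell against WT. In Smarca1 KO against WT 0 were called, with 3 at an unadjusted p under 0.05 and 1 called by DESeq2; Hes1 was at -0.43 (adjusted p = 0.123). These counts changed with the libraries in the fit. Against WT 1 fell when DKO replicate 2 or 3 or any WT library was left out. Those fits called 450 to 715 of all genes against WT, where the main fit called 1887. Against Smarca1 KO 0 fell without DKO replicate 2 or 3 or Smarca1 KO replicate 2, where 286 to 354 of all genes were called against 692 in the main fit. Without Smarca1 KO replicate 3, 3 fell and 795 of all genes were called.

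Of 13 other neural bHLH genes 9 could be tested, and 0 were called in any comparison. Their medians were 0.11 and 0.23 in DKO, set against Smarca1 KO and against WT, and 0.04 in Smarca1 KO against WT. An unadjusted p under 0.05 was reached by 3, 2 and 1 of the 9 in that order, and DESeq2 called 1, 1 and 0. Olig1, of the oligodendrocyte lineage, was 7.36 ± 1.84 CPM in DKO, 6.85 ± 3.07 CPM in Smarca1 KO and 3.64 ± 0.130 CPM in WT (log2 fold change 1.01 in DKO against WT, adjusted p = 0.0540, and 0.91 in Smarca1 KO against WT, adjusted p = 0.177).

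Of 18 genes proposed as targets of neurogenins or NeuroD factors, 0 were called in DKO against Smarca1 KO, where 3 were under 0.05 in unadjusted p and 1 was called with DESeq2. Lzts1, a regulator of cell delamination, had the smallest p there (log2 fold change -0.25, adjusted p = 0.0607). In DKO against WT 3 fell and 1 rose, with 10 under 0.05 in unadjusted p; 5 fell and 3 rose with DESeq2, and 6 fell and 3 rose with only those groups in the fit. The Notch ligands Dll1 (log2 fold change -0.28, adjusted p = 0.0401) and Dll3 (-0.35, adjusted p = 0.0496) and the Notch modifier Mfng (-0.28, adjusted p = 0.0441) fell, and the corepressor Cbfa2t3 rose (0.28, adjusted p = 0.0453). Dll1 averaged 98.1 ± 6.20 CPM in DKO, 98.6 ± 10.6 CPM in Smarca1 KO and 119.3 ± 1.93 CPM in WT. The intermediate progenitor factor Eomes, a known target of Neurog2, had a log2 fold change of -0.05 in DKO against Smarca1 KO (adjusted p = 0.727) and -0.18 against WT (adjusted p = 0.10); it is given as the best known of these targets and was chosen after its values were seen. In Smarca1 KO against WT 0 of the 18 were called (4 with an unadjusted p under 0.05, 1 by DESeq2), with Dll1 at -0.27 (adjusted p = 0.140). When DKO replicate 2 or 3 or any WT library was left out, or with effective-length offsets, 0 of the 18 were called in DKO against WT; without DKO replicate 1, 1 fell and 2 rose, and without Smarca1 KO replicate 2, 4 fell and 0 rose. The medians of the list were -0.05 and -0.09 in DKO, set against Smarca1 KO and against WT, and -0.04 in Smarca1 KO against WT.

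**Figure D4:**
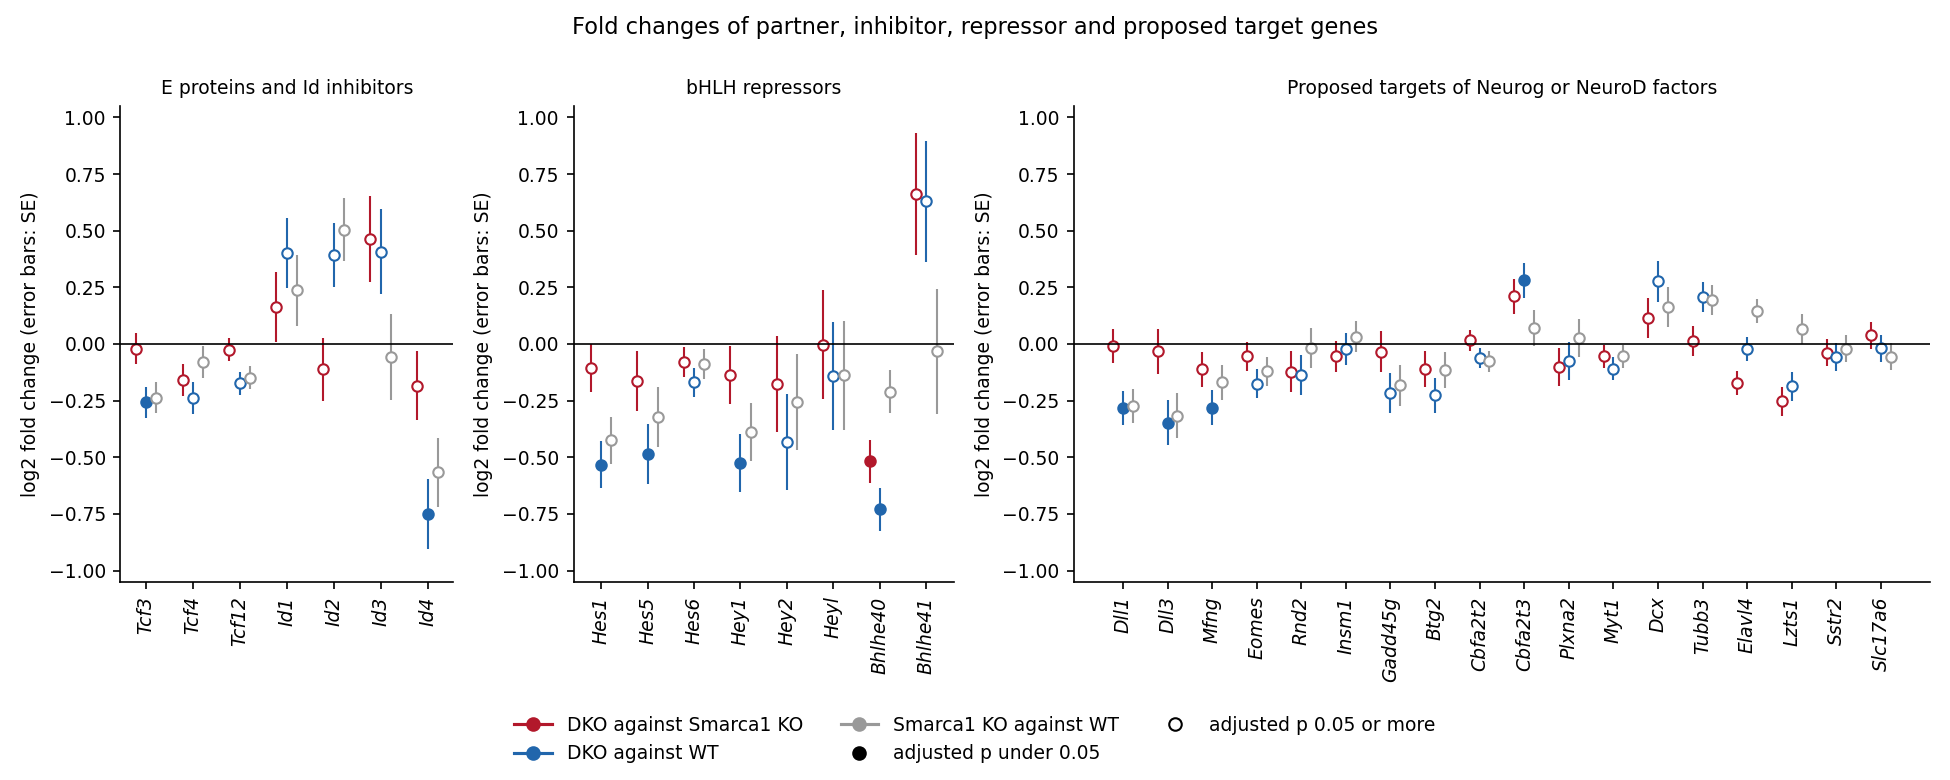
Log2 fold changes (points) with their SE (bars) of E protein and Id genes, bHLH repressors and proposed target genes for DKO set against each of the other groups and for Smarca1 KO set against WT; filled points have an adjusted p under 0.05. Bhlhe40 is the only filled point in DKO against Smarca1 KO, at -0.52, while Id4 lies lowest in DKO against WT at -0.75.

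In bulk tissue, fewer cells of a type and less RNA per cell cannot be told apart, so levels of cell type markers are given beside the 8 genes. Radial glia markers (8 genes, Hes1 and Hes5 included) summed to 2164 to 2398 CPM in DKO, 2029 to 2273 CPM in Smarca1 KO and 2354 to 2407 CPM in WT. Of these, 0 were called in DKO against Smarca1 KO (1 with an unadjusted p under 0.05, 1 by DESeq2), and 2 rose and 2 fell in DKO against WT (7 with an unadjusted p under 0.05; with DESeq2 2 rose and 5 fell). Intermediate progenitor markers (6 genes, of which Eomes, Insm1, Gadd45g, Btg2 and Mfng are also among the proposed targets) summed to 629.4 to 655.8 CPM in DKO, 629.0 to 751.5 CPM in Smarca1 KO and 718.2 to 739.5 CPM in WT. Of these 1 fell against Smarca1 KO and 2 against WT (3 with DESeq2), and none rose. Mfap4 fell in DKO against Smarca1 KO (change on the log2 scale -0.45, adjusted p = 0.0334) and against WT (-0.51, adjusted p = 0.0134). Markers chosen for projection neurons (8 genes) summed to 3601 to 4143 CPM in DKO, 3518 to 4375 CPM in Smarca1 KO and 3400 to 3645 CPM in WT. Tubb3, Dcx and Slc17a6 of this list are also among the proposed targets. In DKO against WT 1 rose and 1 fell (3 and 1 with DESeq2). Tubb3, Dcx and Stmn2 are expressed in other neurons too, and Tubb3 and Dcx were the highest of the list, averaging 1311 and 1246 CPM in DKO. Only these 3 had positive log2 fold changes in DKO against WT, while 5 were negative. Stmn2, a tubulin-binding protein of growing axons, rose against WT (log2 fold change 0.44, adjusted p = 0.0279). Fezf2, a determinant of deep layer neurons, fell in DKO (log2 fold change -0.51 against Smarca1 KO, adjusted p = 0.00551, and -0.45 against WT, adjusted p = 0.00696).

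Of the markers of cortical identity, Emx1 (log2 fold change -0.62, adjusted p = 0.00335) and Lhx2 (-0.58, adjusted p = 0.00553) fell in DKO against WT, and Emx1 also fell against Smarca1 KO (-0.36, adjusted p = 0.0408). Ventral interneuron markers (10 genes) summed to 1147 to 1376 CPM in DKO, 1061 to 1150 CPM in Smarca1 KO and 974.5 to 1134 CPM in WT, and 3 rose in DKO against WT (6 with DESeq2). Cajal-Retzius markers (6 genes) summed to 403.0 to 428.6 CPM in DKO, 309.7 to 418.3 CPM in Smarca1 KO and 329.5 to 356.3 CPM in WT, and 2 rose in DKO against WT. Microglia markers (6 genes) summed to 41.9 to 51.9 CPM in DKO, 31.5 to 38.3 CPM in Smarca1 KO and 30.7 to 32.7 CPM in WT, and 2 rose in DKO against Smarca1 KO, Cx3cr1 (log2 fold change 0.66, adjusted p = 0.00807) and Trem2 (0.81, adjusted p = 0.0481). Against WT 3 microglia markers rose, Cx3cr1 (0.77, adjusted p = 0.00339), Trem2 (0.92, adjusted p = 0.0194) and C1qa (1.15, adjusted p = 0.00637). Of diencephalon, endothelium and meninges markers 0 were called in any comparison by edgeR or DESeq2, with 2 diencephalon markers at an unadjusted p under 0.05 in DKO against Smarca1 KO, and 1 of 7 blood markers fell in DKO against WT (3 with DESeq2). No marker of these lists was at 0 in all libraries. Their part in the levels of the 8 genes was not tested.

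The genes whose level most resembled that of each gene called were sought over the 9 libraries, by the root mean square difference of log2 CPM centred on each gene's mean, among 12311 genes. For Neurog2 the nearest was Emx1, a homeobox gene of the dorsal telencephalon, with a difference of 0.0407 (log2), and Mdk (0.0546) was also among the nearest 3. Emx1 averaged 53.3 ± 4.03 CPM in DKO, 68.4 ± 7.80 CPM in Smarca1 KO and 81.8 ± 1.26 CPM in WT. For Neurod4 they were Emid1 (0.169), Smarca5 (0.211), the remodeller gene that is lower in DKO, and Zfp992 (0.233). The nearest to Neurog1 were Riox2 (0.145), Acads (0.156) and Xylb (0.158), those to Nhlh1 were Pgghg (0.131), Tuba4a (0.136) and Zfp783 (0.150), and Psmg2 (0.0364) and Ankrd10 (0.0441) were among the nearest 3 to Nhlh2. The spread of the gene itself on this scale ran between 0.119 for Nhlh2 and 0.730 for Neurod4, so the differences cannot be compared between the 5 genes.

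The nearest tested genes on either side of Neurod4, Neurog2 and Nhlh1 were not called in any comparison. Vangl2, 23848 bases from Nhlh1, was just over the threshold in DKO against WT (log2 fold change -0.27, adjusted p = 0.0506). Ncstn, on the other side of Nhlh1, was at 0.04 there (adjusted p = 0.650). Beside Neurog1, Cxcl14, a chemokine gene 36480 bases away, rose in DKO against WT (log2 fold change 0.62, adjusted p = 0.0426) while Neurog1 fell. Beside Neurod6, Itprid1, 155632 bases away, rose in DKO against Smarca1 KO (change on the log2 scale 1.65, adjusted p = 0.00700) and against WT (2.38, adjusted p = 0.00144), where Neurod6 was not called. Itprid2, 178601 bases from Neurod1, rose in both (0.29, adjusted p = 0.0150, and 0.24, adjusted p = 0.0203). Cerkl, which overlaps Neurod1, was not taken as a neighbour, and its fold change is not given. In DKO against WT, Slc22a15 near Nhlh2 rose (0.31, adjusted p = 0.0483) and Cdk12 near Neurod2 fell (-0.16, adjusted p = 0.0432).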

How the data were processed

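RNA was measured in 9 libraries, 3 each of DKO, Smarca1 KO and WT, grouped by the genotype labels. The authors deposited 1 table per library, made with Salmon (version 1.4.0 per the submitters' processing notes, where mm10 and, with no role, DESeq2 are named too). The deposited columns are estimated counts per transcript (not normalised) and TPM, per the file headers; neither the annotation release nor the strand setting is given in the sources used here. Transcripts were matched to GENCODE M21 (GRCm38): 115977 of 116546 matched, and the rest held 0.104% to 0.116% of reads. Counts were summed to 35498 genes and rounded. edgeR 4.0.16 (limma 3.58.1, R 4.3.3) fitted all 9 libraries with group means, TMM scaling and filterByExpr, which kept 15773 genes; glmQLFTest p-values were adjusted by Benjamini-Hochberg over these and called under 0.05. The genes varied between replicates by a common biological coefficient of 10.2%. Group means are of TMM-scaled CPM, and TPM served only comparisons between genes. No 2 libraries held identical values. The fit was tested on simulated data.

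The 8 genes and the 15 gene lists were chosen with earlier results of these data known. Beside the 8 genes, the genes named were Smarca5 and Smarca1; per list and comparison up to 4 called genes with the smallest p (up to 2 for cell types), or the gene with the smallest p where none was called; and the 3 genes nearest in pattern (mean log2 CPM at least 1). A few genes that this rule names are not reported here. Alternatives were DESeq2 1.42.0, relative log expression factors, no filter, only the groups compared, effective-length offsets, a replicate block, a Y-linked covariate, each library left out, and, added after seeing the data, both libraries rich in meninges markers left out. Promoters came from RefSeq (GRCm38.p6). A comparison of protein sequences was planned and is not reported here. The error of a read count covers counting only, since molecular identifiers are not mentioned.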

Additional observations from a re-analysis of the deposited data

How the results depend on the processing

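The 24 log2 fold changes of the 8 genes were recomputed under 17 alternatives (408 values): 382 kept their side of the threshold, 18 lost the call and 8 gained it, and no called value changed sign. Values that were not called took both signs for Neurod2 (-0.28 to 0.01) and Neurod6 (-0.24 to 0.02) in DKO against WT, and for Neurod1 (-0.02 to 0.10) and Neurod4 (-0.09 to 0.14) in Smarca1 KO against WT. With DESeq2, 5 of the 8 genes were called in DKO against Smarca1 KO and 1 in Smarca1 KO against WT. With both libraries rich in meninges markers left out, 1 was called in Smarca1 KO against WT, where the Smarca1 KO libraries kept were below WT in these markers. Leaving out 1 library gave 2 to 4 called genes in DKO against Smarca1 KO, 4 to 5 in DKO against WT and 0 to 1 in Smarca1 KO against WT. Neurod4 and Nhlh1 lost their calls in DKO only with the Y-linked covariate.

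With that covariate (4 genes, mean log2 CPM 5.80 to 5.86 in DKO, 5.89 to 6.00 in Smarca1 KO and 5.94 to 6.00 in WT) 0 of the 8 genes were called in DKO against Smarca1 KO and 0 in DKO against WT. The groups account for 0.771 of the covariate's variance, so both cannot be told apart. Against Smarca1 KO the log2 fold change in DKO was then -1.59 for Neurod4 (adjusted p = 0.127), -0.33 for Neurog1, -0.45 for Nhlh1 and -0.02 for Neurog2, where it had been -1.56, -0.75, -0.73 and -0.32. Against WT it was -1.55 for Neurod4 (adjusted p = 0.265), -0.67 for Neurog1, -0.79 for Nhlh1, -0.24 for Neurog2 and -0.31 for Nhlh2, where it had been -1.52, -1.11, -1.08, -0.55 and -0.25.

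Over all genes, DESeq2 called 1135 genes in DKO against Smarca1 KO, 2827 in DKO against WT and 709 in Smarca1 KO against WT; edgeR called 692, 1887 and 53 in that order, a fit of only the groups compared 181, 3443 and 62, effective-length offsets 389, 1262 and 38, no filter 589, 1762 and 90, and the fit without both libraries rich in meninges markers 398, 2797 and 607. Of 408 list counts, 76 moved by over 1.5 times. Fits without 1 library called 286 to 795 genes, 450 to 3178 and 14 to 72.

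The replicate numbers are not shown to pair the libraries: same-numbered libraries correlated in their deviations from the group means at -0.063 to 0.35, and Smarca1 KO replicate 3 was closer to DKO replicate 2 (0.160) than to DKO replicate 3 (0.106). With a replicate block 3 of the 8 genes were called in DKO against Smarca1 KO, 5 in DKO against WT and 0 in Smarca1 KO against WT, as without it, and over all genes 529, 1745 and 29. Depth limits Neurod4 most, at 83 reads in 1 library.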
